A study of Mus musculus with 16 samples.

Results

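Single-cell RNA-seq (scRNA-seq) of 2208L mammary tumors was compared between mice given anti–PD-1 alone and mice given vehicle. These are 2 of the 16 samples of the series, picked by their treatment labels, with 1 library per condition. Cells with more than 200 and fewer than 6000 detected genes and at most 10% mitochondrial unique molecular identifiers (UMIs, each marking 1 captured RNA molecule) were kept. The filter left 1974 vehicle cells and 2053 anti–PD-1 cells, which is 4027 of the 13830 cells kept over the 4 tumor libraries. The other tumor libraries came from mice given IACS-70654, an inhibitor of the CBP/P300 bromodomain, alone or together with anti–PD-1, and the other 12 samples of the series are bone marrow cells. 2208L is a Trp53-null mammary tumor that is kept as a frozen bank and passed on by transplanting tumor pieces, so the tumor cells of both groups descend from 1 tumor. The hosts were female WT BALB/c mice with an intact immune system, 7 to 8 weeks old at transplantation into a mammary fat pad. The vehicle was 0.5% methylcellulose by mouth, and the antibody was injected i.p. every 3 days. Vehicle mice, like those given IACS-70654 alone, were treated for 7 days. How long the antibody was given, and whether vehicle mice received an isotype antibody, is not stated for these libraries. Cells of 3 mice were pooled in each library after a sort for viable cells. Cells were tagged with oligos per sample and the samples were split by tag, and the files of both samples list 4 tags. A library here is thus the set of cells assigned to 1 sample, and which samples shared a preparation is not stated. Differences between the 2 pools of mice, the 2 libraries, the 2 treatments and their possibly unlike lengths therefore cannot be told apart. No test between conditions was possible, and every 95% interval given here covers counting error only.

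PD-1, encoded by Pdcd1, is an inhibitory receptor that T cells display after activation. Its ligands PD-L1 (Cd274) and PD-L2 (Pdcd1lg2) are displayed by tumor cells and by myeloid cells, and their binding dampens T cell receptor signaling. Antibodies to PD-1 block this contact, and T cells that regain activity can divide, release granzymes and IFN-γ, and so induce interferon response genes and T cell–attracting chemokines in neighboring cells. No transcript reports whether the antibody had bound, so the label of the treated library could not be checked from RNA. The tumor cell class had the epithelial transcripts Epcam, Krt8 and Krt18 in both libraries. Trp53 was counted at 64.7 CPM in vehicle and 66.7 CPM in anti–PD-1 tumor cells, and at 54.8 and 52.9 CPM in macrophages of the host. The assay reads the end of a transcript, so these counts do not bear on the deleted part of the gene.

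Several of the genes on which the comparison turns are interferon response genes, and the start regions of Isg15, Rsad2 and Cxcl10 are shown because these genes differed in more than 1 cell class. Each line gives 300 bases of the RefSeq annotation on GRCm38.p6, from 250 bases before to 50 bases after the transcription start, 5′ to 3′ on the gene's strand, with matches of the interferon-stimulated response element in capitals. The motif was searched as GAAA, any 2 bases and GAAA, and for the other strand as TTTC, any 2 bases and TTTC, and matches may overlap.
Isg15: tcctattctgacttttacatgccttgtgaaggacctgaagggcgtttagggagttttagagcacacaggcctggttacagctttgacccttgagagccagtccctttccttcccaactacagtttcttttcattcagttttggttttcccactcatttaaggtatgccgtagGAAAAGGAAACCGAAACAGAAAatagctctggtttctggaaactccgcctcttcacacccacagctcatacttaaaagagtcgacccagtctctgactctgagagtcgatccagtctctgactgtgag
Rsad2: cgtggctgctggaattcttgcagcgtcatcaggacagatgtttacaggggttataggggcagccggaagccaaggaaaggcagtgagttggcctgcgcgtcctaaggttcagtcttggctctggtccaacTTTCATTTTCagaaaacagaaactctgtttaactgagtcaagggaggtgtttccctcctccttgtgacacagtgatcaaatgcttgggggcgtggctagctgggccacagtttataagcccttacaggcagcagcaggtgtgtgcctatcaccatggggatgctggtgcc
Cxcl10: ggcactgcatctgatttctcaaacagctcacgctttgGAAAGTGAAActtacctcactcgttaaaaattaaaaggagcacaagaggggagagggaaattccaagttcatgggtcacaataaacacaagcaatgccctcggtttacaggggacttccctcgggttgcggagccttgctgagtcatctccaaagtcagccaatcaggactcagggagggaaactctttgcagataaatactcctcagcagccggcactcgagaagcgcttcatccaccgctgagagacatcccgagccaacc
The Isg15 region lies at chr4:156200769-156201068, that of Rsad2 at chr12:26456403-26456702 and that of Cxcl10 at chr5:92348840-92349139, all on the minus strand. Isg15 had 3 overlapping matches, beginning 78, 72 and 66 bases before the start, Rsad2 had 1 match beginning 120 bases before it, and Cxcl10 had 1 beginning 213 bases before it. Of all 32851 start regions of this length, 3.44% held the motif. It was found in the start regions of 13 of 21 matched genes of the type I interferon list, 9 of 17 of the IFN-γ list, 2 of 18 of the chemokine list and 2 of 46 of the G2/M list used here. A match is a string of letters and was not tested for binding. Ccl5, which also turns up in several classes, has no entry in this table.

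The vehicle library held 2062 barcodes with 15590289 UMIs and the anti–PD-1 library 2214 barcodes with 16191494 UMIs. More than 10% mitochondrial UMIs removed 62 barcodes from the vehicle and 132 from the anti–PD-1 library. Kept cells had medians of 5120.5 and 4724 UMIs, respectively. No barcode was shared between the libraries. Each kept cell was put in a class by how many of a fixed set of marker genes it had UMIs of, for example at least 4 of 12 epithelial genes for tumor cells, and cells with markers of more than 1 class were set apart. The class of a cell thus uses its markers, and differences in those markers between libraries are not separate findings.

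Tumor cells and tumor-associated neutrophils (TANs) took larger shares of the anti–PD-1 tumor and tumor-associated macrophages a smaller one. The macrophage share was 32.8% with vehicle (647 cells, exact binomial interval 30.7% to 34.9%) and 25.1% with anti–PD-1 (516 cells, 23.3% to 27.1%), a log2 ratio of -0.38 (-0.55 to -0.21). Tumor cells made up 16.6% (15.0% to 18.3%) and 21.3% (19.5% to 23.1%), a log2 ratio of 0.36 (0.15 to 0.57). Neutrophils made up 21.5% (19.7% to 23.4%) and 25.4% (23.6% to 27.4%), a log2 ratio of 0.24 (0.05 to 0.43). These 3 ratios had intervals without 0, whereas those of every other named cell class included it.

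T or NK cells, the class that PD-1 blockade acts on, numbered 69 with vehicle and 95 with anti–PD-1, or 3.50% (2.73% to 4.40%) and 4.63% (3.76% to 5.63%) of cells, a log2 ratio of 0.40 (-0.06 to 0.87). Monocytes made up 6.18% and 7.01%, a log2 ratio of 0.18 (-0.18 to 0.54), and B cells 1.57% and 2.29%, a log2 ratio of 0.54 (-0.14 to 1.25). Dendritic cells numbered 31 in each library, plasmacytoid dendritic cells 16 and 11, fibroblasts 27 and 26, and endothelial cells 9 and 11. With so few cells, a difference in these rare classes was not detectable at this depth unless it was large. Cells with markers of more than 1 class made up 10.1% and 7.36%, a log2 ratio of -0.46 (-0.78 to -0.15), and most of these carried neutrophil and myeloid markers (65 and 55 cells) or tumor cell and myeloid markers (49 and 23 cells). All immune classes together made up 67.9% and 66.5% of cells. A share can differ because cells of this class are more or fewer or because cells of another class are, and these cannot be told apart.

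**Figure D1:**
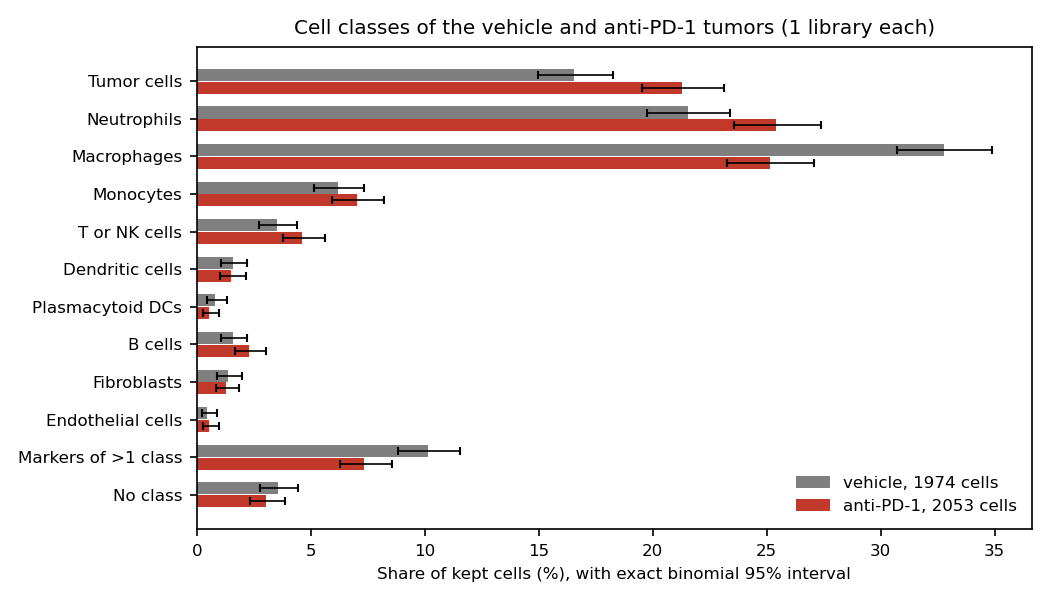
Share of kept cells in each cell class, in percent on the x axis, for the vehicle library (grey) and the anti–PD-1 library (red), with exact binomial 95% intervals as error bars. The intervals of macrophages, tumor cells, neutrophils and cells of mixed markers do not overlap between the libraries, with macrophages at 32.8% and 25.1% and tumor cells at 16.6% and 21.3%.

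To ask whether the PD-1 pathway itself differed at the RNA level, UMIs of the receptor and its ligands were summed over the cells of each class and scaled to all UMIs of the class (CPM, the usual scaled count). Pdcd1 (ENSMUSG00000026285) had 29 UMIs in all vehicle cells and 36 in all anti–PD-1 cells. In T or NK cells it had 11 UMIs in 6 of 69 vehicle cells and 20 UMIs in 8 of 95 anti–PD-1 cells, a log2 ratio of 0.22 (-0.91 to 1.43). Macrophages held 14 and 11 UMIs of Pdcd1, and neutrophils and tumor cells held 0 in both libraries. The receptor was counted mostly in T or NK cells and macrophages, and a difference was not detectable at this depth.

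Cd274 (ENSMUSG00000016496), the PD-L1 gene, was far more abundant and was counted across the classes, with 495 UMIs in all vehicle cells and 523 in all anti–PD-1 cells, a log2 ratio of 0.02 (-0.16 to 0.20). In neutrophils its level was 196 CPM with vehicle and 177 CPM with anti–PD-1. It was 36.3 and 43.5 CPM in macrophages, 66.9 and 98.5 CPM in monocytes, 100.2 and 96.2 CPM in T or NK cells, and 7.06 and 6.45 CPM in tumor cells. All 5 log2 ratios lay between -0.15 and 0.56 and had intervals that included 0. Of these 5 classes, neutrophils had the highest level and tumor cells the lowest in both libraries. Pdcd1lg2, the PD-L2 gene, had 46 and 44 UMIs over all cells and was led by neutrophils with 23 and 14 UMIs, a log2 ratio of -1.15 (-2.22 to -0.13). Ifng, the gene of IFN-γ, had 10 and 17 UMIs in T or NK cells, in 4 and 11 cells, a log2 ratio of 0.12 (-1.09 to 1.41).

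In T or NK cells of the anti–PD-1 tumor, summed transcripts of mitosis, cytotoxic granules and interferon response were higher than in the vehicle tumor. Genes with at least 50 UMIs over both libraries were compared, 1373 in this class, and past the fold means a log2 ratio of at least 1 in size. Past the fold were 36 higher genes, or 2.62% of those compared, and 10 lower genes, or 0.728%, from sums of only 159717 and 249353 UMIs. The median log2 ratio of all genes was 0.02, and 713 of the 1373 genes were above 0.

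Few list members reached the minimum of UMIs in this class, and some reached it only through the library in which they were high, so counts and medians over the measured members describe these members alone and the rest of each list is given beside them. Of the 52 genes of the G2/M list, whose products carry out mitosis, 12 were measured, of which 12 were above 0 and 6 past the fold higher, with a median log2 ratio of 1.15. The other 40 members, all under the minimum, had 89 UMIs with vehicle and 388 with anti–PD-1 in all, a log2 ratio of 1.48 (1.15 to 1.83), with 36 members higher and 2 lower. S phase genes did not share this direction, as 3 of 42 were measured with a median of -0.11, and the other 39 had 219 and 277 UMIs, a log2 ratio of -0.30 (-0.56 to -0.04), with 16 higher and 21 lower. Ube2c (ENSMUSG00000001403), which helps the anaphase-promoting complex mark cyclins for destruction, had 3 UMIs in 3 vehicle cells and 69 UMIs in 9 anti–PD-1 cells, a log2 ratio of 3.88 (2.27 to 6.19). Mki67 (ENSMUSG00000031004), the gene of the proliferation marker Ki-67, had 5 UMIs in 3 cells and 59 UMIs in 9 cells, a log2 ratio of 2.92 (1.61 to 4.59). Both genes came from few cells, and Top2a, the topoisomerase that untangles chromosomes, had 15 and 63 UMIs in 7 and 14 cells. Cells with UMIs of at least 2 of Mki67, Top2a, Birc5, Ube2c and Cdk1 were called cycling. They numbered 4 of 69 vehicle and 9 of 95 anti–PD-1 T or NK cells, and 2 of 64 and 7 of 92 after each cell was thinned to 1000 UMIs, a log2 ratio of shares of 1.28 (-1.11 to 4.59). The interval of this ratio of shares included 0. Without the cycling cells the median of the G2/M list was 0.32, which is lower by construction, here and in the other classes, since genes of that list define these cells. Without the highest cell of each gene it was 1.39. Such a step takes a larger part of small vehicle counts, as for Mki67 it left out 3 of 5 vehicle and 17 of 59 anti–PD-1 UMIs. The rise of the median therefore does not show that the difference was widely spread over cells.

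Of 17 cytotoxic effector genes 7 were measured, of which 3 were past the fold higher and 0 lower, with a median log2 ratio of 0.71. The 10 members under the minimum had 72 and 152 UMIs, a log2 ratio of 0.44 (0.02 to 0.86). Ccl5 (ENSMUSG00000035042), a chemokine of effector T and NK cells, had 112 UMIs in 13 vehicle cells and 432 UMIs in 30 anti–PD-1 cells, or 701 and 1732 CPM, a log2 ratio of 1.30 (1.00 to 1.62). It was spread over cells, and without the highest cell of each library the ratio was 1.39. Gzma and Gzmb, which encode the granule proteases granzyme A and B, behaved differently. Gzma (ENSMUSG00000023132) had 8 UMIs in 3 vehicle cells and 124 UMIs in 5 anti–PD-1 cells, a ratio of 3.31, but 112 of the latter came from 1 cell. The other anti–PD-1 cells held 5, 4, 2 and 1 UMIs and the vehicle cells 4, 2 and 2. Without the highest cell of each library, so also without 4 of the 8 vehicle UMIs, the ratio was 0.94. Gzmb (ENSMUSG00000015437) had 12 UMIs in 6 cells and 107 UMIs in 13 cells, 64 of them in 1 cell, and a log2 ratio of 2.51 (1.65 to 3.51), or 1.78 without the highest cells. The cells highest for Gzma and for Gzmb were separate cells that both had UMIs of Ncr1, the NK cell receptor NKp46, none of Cd3e, and 11 and 8 UMIs of Mki67. Gzma is also a marker of this class. Ifitm1 (ENSMUSG00000025491), an interferon-induced membrane protein with close relatives, had 2 UMIs with vehicle and 85 with anti–PD-1, a log2 ratio of 4.77 (2.87 to 7.84), and 82 of these were in yet another cell. Every other cell with Ifitm1, in both libraries, held 1 UMI. Without the highest cell of each library, so also without 1 of the 2 vehicle UMIs, the ratio was 0.94.

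Of 28 type I interferon genes 4 were measured in T or NK cells, 2 of them past the fold higher, with a median of 1.23. The 22 members counted under the minimum had 138 and 319 UMIs, a log2 ratio of 0.57 (0.27 to 0.86), with 16 higher and 5 lower. Irf7 (ENSMUSG00000025498), a transcription factor of the type I interferon loop, had 7 UMIs in 7 of 69 vehicle cells and 49 UMIs in 29 of 95 anti–PD-1 cells, a log2 ratio of 2.16 (1.01 to 3.55). Isg15 (ENSMUSG00000035692), a ubiquitin-like modifier, had 14 UMIs in 9 cells and 65 UMIs in 26 cells, a log2 ratio of 1.57 (0.72 to 2.52). Without the highest cells the ratios were 2.23 and 1.51. Cells with a UMI of Rsad2 were 3 of 64 and 5 of 92 after thinning to 1000 UMIs, a log2 ratio of 0.21 (-2.15 to 2.90), and cells with at least 3 of Ifit2, Ifit3, Isg15 and Rsad2 were 1 of 64 and 0 of 92, or 1 of 69 and 6 of 95 at their own depth, so a difference in the share of responding cells was not detectable at equal depth. Of 23 IFN-γ response genes 8 were measured, of which 5 were above 0, with a median of 0.18. Only Iigp1, a GTPase that attacks the membranes of intracellular pathogens, was past the fold, with a log2 ratio of 1.39 (0.37 to 2.56). The 15 members under the minimum had 98 and 210 UMIs, a log2 ratio of 0.46 (0.10 to 0.82). The 12 measured MHC class I genes had a median of 0.05, and the other 8 had 98 and 191 UMIs, a log2 ratio of 0.32 (-0.04 to 0.69).

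The checkpoint list had 7 measured members, none past the fold, and a median of 0.38. Its 15 members under the minimum had 75 and 142 UMIs, a log2 ratio of 0.28 (-0.14 to 0.70). Ctla4 (ENSMUSG00000026011), an inhibitory receptor of activated and regulatory T cells, had 45 UMIs in 17 vehicle cells and 135 UMIs in 34 anti–PD-1 cells, a log2 ratio of 0.94 (0.45 to 1.46). The 3 measured regulatory T cell genes had none past the fold and a median of 0.76. The other 5 of that list had 27 and 65 UMIs, a log2 ratio of 0.62 (-0.04 to 1.33). Among the measured ones Ikzf2, the gene of the regulatory T cell factor Helios, had a ratio of 0.76 (0.26 to 1.27), whereas cells with Foxp3, which defines these cells, were 6 of 69 and 9 of 95. The 10 measured exhaustion and memory genes had a median of -0.07 and none past the fold, and the other 4 had 35 and 59 UMIs, a log2 ratio of 0.11 (-0.52 to 0.76). Lef1, a factor of naive and memory T cells, had a ratio of -0.69 (-1.07 to -0.31). Lower past the fold was Bach2 (ENSMUSG00000040270), a repressor that restrains effector differentiation, with 171 and 125 UMIs, or 1071 and 501 CPM, a ratio of -1.09 (-1.44 to -0.75). Gadd45b, a stress-induced gene, had 87 and 54 UMIs and a ratio of -1.33 (-1.85 to -0.82). Pde4d, Chd4 and Kcnq5 also ranked lowest, and 23 of the 35 vehicle UMIs of Kcnq5 were in 1 cell. Without the highest cell of each library the ratio of Kcnq5 was 0.02.

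Differences in the makeup of the T or NK class by its subset markers were not detectable at this depth. After thinning to 1000 UMIs, cells with Cd8a or Cd8b1 were 13 of 64 with vehicle and 17 of 92 with anti–PD-1, or 20.3% (11.3% to 32.2%) and 18.5% (11.1% to 27.9%). At their own depth they were 24.6% and 25.3%. Cells with Ncr1 or Klrb1c and no Cd3 transcripts, markers of NK cells, were 1 of 64 and 2 of 92 after thinning and 0 of 69 and 4 of 95 at their own depth. Thinning can also remove Cd3 transcripts, as it did in the 1 vehicle cell, so the thinned counts are a poor measure of NK cells. Cells with Cd4 were 10.9% and 7.61%, cells with a γδ T cell receptor gene 4.69% and 6.52%, cells with Gzmb 6.25% and 10.9%, and cells with Pdcd1 6.25% and 6.52%, and the intervals of these ratios, and of those for CD8 and NK cell markers, included 0. In neutrophils, which should lack them, thinned cells with Cd8a or Cd8b1, with Cd4, with Gzmb or with Pdcd1 numbered 0 of 332 and 0 of 443. Cells with Gzma numbered 0 and 2 there, and cells with a γδ T cell receptor gene 0 and 1. Before thinning, median depths were 1228 and 1322 UMIs in neutrophils and 1968 and 2142 UMIs in T or NK cells. A count of 0 of 332 cells allows a share of cells with a UMI of up to 0.904% by the rule of 3 counts, and of up to 1.105% by the exact binomial interval. The summed level of the 12 macrophage markers in T or NK cells, was 2016 CPM with vehicle and 1552 CPM with anti–PD-1, and the part of such carried-over RNA in the results was not tested.

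In tumor cells, the chemokine genes Cxcl10 and Ccl5 were lower in the anti–PD-1 tumor, with many of the vehicle UMIs in few cells. Of 10018 genes compared, 34 or 0.339% were past the fold higher and 20 or 0.2% lower, with a median of 0.05 over all genes. Of all these genes, 6032 were above 0. Cxcl10 (ENSMUSG00000034855), the CXCR3 ligand that draws T cells, had 269 UMIs in 24 of 327 vehicle cells and 65 UMIs in 28 of 437 anti–PD-1 cells, or 51.3 and 8.92 CPM, a log2 ratio of -2.52 (-2.94 to -2.13). Ccl5 had 280 UMIs in 19 cells and 73 UMIs in 27 cells, a log2 ratio of -2.41 (-2.81 to -2.04). Of these vehicle UMIs, 175 of Cxcl10 and 103 of Ccl5 were in 1 and the same cell, which also held 40 UMIs of Rsad2, 55 of Isg15 and 33 of Epcam, and had 14615 UMIs in all. Without the highest cells the ratios were -1.47 and -2.16, so both remained past the fold. The shares of tumor cells with a UMI of either gene, thinned to 5000 UMIs, were 4.44% and 2.38% for Cxcl10 and 4.76% and 2.85% for Ccl5, with ratios whose intervals included 0.

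Of 18 measured type I interferon genes in tumor cells, 1 was past the fold lower (Rsad2, -1.17, -1.58 to -0.76), and the median was 0.16. The ratio of Rsad2 was -0.86 without the highest cells, and tumor cells with a Rsad2 UMI were 3.81% and 3.56% after thinning, a log2 ratio of -0.10 (-1.29 to 1.13), and 6.12% and 6.41% at their own depth. Of 15 IFN-γ response genes only Cxcl10 was past the fold, with a median of -0.02. The members of these lists under the minimum of UMIs were lower in sum, at 99 and 99 UMIs and a log2 ratio of -0.47 (-0.89 to -0.06) for type I, and at 64 and 55 UMIs and -0.69 (-1.24 to -0.15) for IFN-γ. The 18 MHC class I genes had none past the fold and a median of -0.06, and B2m, the light chain of all class I molecules, had 759 and 716 CPM, a log2 ratio of -0.08 (-0.14 to -0.02). The 12 chemokines had 2 past the fold lower and a median of -0.09.

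The keratin and epithelial state list had 11 measured members in tumor cells, 1 past the fold higher and 1 lower, and a median of -0.02, and the highest-ranked genes were of mixed kinds. Cst6 (ENSMUSG00000024846), a secreted inhibitor of cysteine proteases, had 117 UMIs in 66 vehicle cells and 558 UMIs in 103 anti–PD-1 cells, a log2 ratio of 1.78 (1.49 to 2.08), with 257 UMIs in 1 cell and a ratio of 0.99 without the highest cells. Cttnbp2, a cortactin-binding protein, had 122 and 458 UMIs in 52 and 57 cells, a log2 ratio of 1.43 (1.14 to 1.73), with 130 UMIs in 1 anti–PD-1 cell and a ratio of 1.27 without the highest cells. The milk casein Csn1s1 had 23 and 89 UMIs in 7 and 14 cells, a ratio of 1.48 (0.80 to 2.21), with 42 of the anti–PD-1 UMIs in 1 cell and a ratio of 1.27 without the highest cells. The basal keratin Krt14 was at 39 and 126 UMIs, and its neighbor in basal cells, Krt17, went the other way, at 97 and 44 UMIs, with log2 ratios of 1.22 (0.69 to 1.77) and -1.61 (-2.16 to -1.09). For Krt14, 1 anti–PD-1 cell held 59 UMIs, and for Krt17, 1 vehicle cell held 44 and 1 anti–PD-1 cell 27. Without the highest cells the ratios were 0.68 and -2.12, and both genes are class markers. Lower genes also included Inhba (ENSMUSG00000041324), the activin A subunit, with 153 and 38 UMIs, of which 83 and 59 vehicle UMIs were in 2 cells and at most 3 in any other, and Mgp, a matrix protein that limits calcification, with 94 and 40 UMIs. Their ratios were -2.48 (-3.04 to -1.96) and -1.71 (-2.28 to -1.16), and were -1.96 and -1.01 without the highest cell of each library. For Inhba the second vehicle cell still carried that ratio, and cells with a UMI were 11 and 19. The summed macrophage markers of this class were 537 and 557 CPM, and those of neutrophils 61.2 and 50.1 CPM.

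Of 36 measured G2/M genes, 27 were above 0, 2 were past the fold higher (Hmmr, 1.29, and Tpx2, 1.00) and 0 lower, and the median was 0.16 against 0.05 over all genes. Of 31 S phase genes, Rrm2, a subunit of the enzyme that makes DNA precursors, was past the fold with 28 and 93 UMIs, a ratio of 1.26 (0.63 to 1.92). Cycling tumor cells were 20 of 327 with vehicle and 47 of 437 with anti–PD-1, or 5 of 315 and 18 of 421 after thinning to 5000 UMIs, which is 1.59% (0.517% to 3.67%) and 4.28% (2.55% to 6.67%), a log2 ratio of 1.43 (-0.05 to 3.21). Without cycling cells the G2/M median was -0.10.

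**Figure D2:**
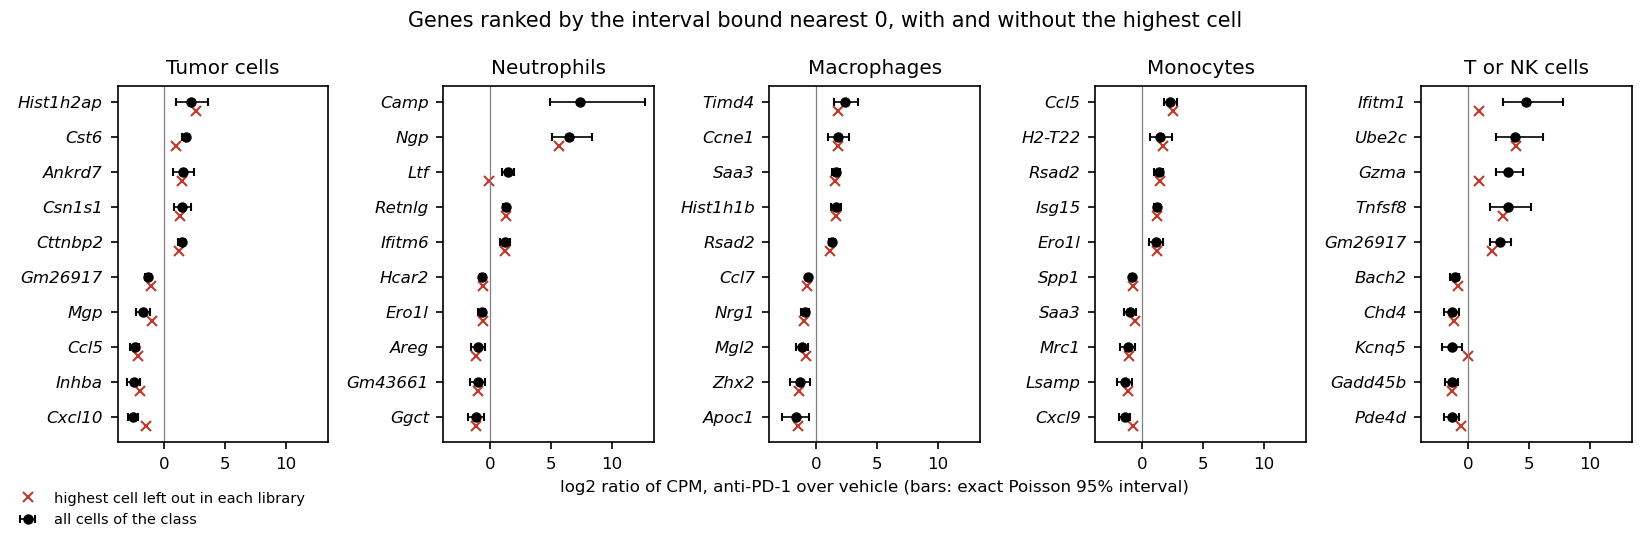
Log2 ratio of CPM, anti–PD-1 over vehicle, on the x axis for the 5 higher and 5 lower genes per class whose interval bound lay farthest from 0, with exact Poisson 95% intervals as bars; crosses give the ratio without the cell highest for the gene in each library. The ratio of Ltf in neutrophils was 1.47 with all cells and -0.10 without the highest, and that of Gzma in T or NK cells 3.31 and 0.94, and Camp has no cross because its only vehicle UMI was in the cell left out.

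Macrophages of the anti–PD-1 tumor had more transcripts of dividing cells, of a few interferon response genes and of hypoxia genes, and fewer of some chemokines and of MHC class II. Of 8681 genes compared, 45 or 0.518% were past the fold higher and 17 or 0.196% lower, with a median of 0.04 over all genes. Of all these genes, 5109 were above 0.

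Of 43 measured G2/M genes, 39 were above 0 and 5 past the fold higher, with a median of 0.49, and of 37 S phase genes 33 were above 0 and 3 past the fold higher, with a median of 0.33. Tpx2, which organizes the spindle, had 72 UMIs in 33 vehicle cells and 116 UMIs in 46 anti–PD-1 cells, a log2 ratio of 1.12 (0.68 to 1.56). Clspn, a replication checkpoint adaptor, had 35 and 70 UMIs and a ratio of 1.43 (0.82 to 2.06). Hist1h1b (ENSMUSG00000058773), a linker histone made in S phase, had 82 UMIs in 25 cells and 189 UMIs in 33 cells, a ratio of 1.63 (1.25 to 2.02), and Ccne1, the cyclin of S phase entry, 18 and 47 UMIs and 1.81 (1.00 to 2.68). All 4 genes were past the fold without the highest cells too, which leaves out 1 cell per library and does not show how widely the rest was spread. Histone genes have near copies whose reads may be split. Cycling macrophages were 68 of 647 and 70 of 516, or 10.5% and 13.6%, and 5.41% (3.77% to 7.47%) and 8.06% (5.82% to 10.8%) after thinning to 2000 UMIs, a log2 ratio of 0.58 (-0.12 to 1.28). Without cycling cells the G2/M median was 0.17 and that of S phase -0.0057.

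Among 26 measured type I interferon genes of macrophages, 18 were above 0, 2 past the fold higher and 0 lower, and the median was 0.10. Over all 8681 genes, 5109 were above 0, with a median of 0.04, so by these 2 measures the list lay near all genes. Rsad2 (ENSMUSG00000020641), the antiviral enzyme viperin, had 272 UMIs in 75 vehicle cells and 507 UMIs in 77 anti–PD-1 cells, or 59.8 and 149.9 CPM, a log2 ratio of 1.33 (1.11 to 1.54). Ifit1, which binds foreign RNA ends, had 118 and 195 UMIs and a ratio of 1.15 (0.81 to 1.49). Ifitm3 and Bst2, which block virus entry and release and were the most abundant members, went the other way, with ratios of -0.24 for Ifitm3 and -0.24 for Bst2. Cxcl10 had 489 and 797 UMIs in 107 and 90 cells, a ratio of 1.13 (0.97 to 1.30), while the 20 measured IFN-γ response genes had a median of 0.04. A single anti–PD-1 macrophage held 101 UMIs of Rsad2, 131 of Cxcl10, 128 of Isg15 and 52 of Ifit1 beside 34 of C1qa, and without the highest cells the ratios were 1.17 for Rsad2, 1.00 for Cxcl10 and 0.79 for Ifit1. Macrophages with a UMI of Rsad2 after thinning to 2000 UMIs were 26 of 629 and 45 of 496, or 4.13% (2.72% to 5.998%) and 9.07% (6.69% to 11.95%), a log2 ratio of 1.13 (0.41 to 1.89). At their own depth they were 75 of 647 and 77 of 516, or 11.6% and 14.9%.

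Hypoxia genes had 17 measured members in macrophages, of which 13 were above 0 and 1 past the fold higher, with a median of 0.25. The most abundant were Ldha, which makes lactate, with 567 and 675 CPM and a log2 ratio of 0.25 (0.17 to 0.33), the cytokine Mif with 0.40 (0.31 to 0.50), and the glycolytic enzyme Pgk1 with 0.44 (0.32 to 0.56). P4ha2, a collagen prolyl hydroxylase, was past the fold with 18 and 37 UMIs, a ratio of 1.47 (0.62 to 2.37).

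MHC class II genes were lower, by little. Of 8 measured genes 1 was above 0 and none past the fold, with a median of -0.22. Cd74, the invariant chain, had 12863 and 10995 CPM, a ratio of -0.23 (-0.25 to -0.21), and H2-Aa had -0.26 (-0.30 to -0.23). Of 17 measured chemokines, 6 were above 0, with a median of -0.04 against 0.04 over all genes. Cxcl10 was the only one past the fold, and it was higher. Ccl7 (ENSMUSG00000035373), a monocyte attractant, had 2024 UMIs in 223 cells and 952 UMIs in 167 cells, or 445 and 281 CPM, a ratio of -0.66 (-0.77 to -0.55), and Ccl8 had 1510 and 1166 CPM, a ratio of -0.37 (-0.43 to -0.32). Mgl2 (ENSMUSG00000040950), a lectin of alternatively activated macrophages and dendritic cells, had 148 and 50 UMIs and a ratio of -1.14 (-1.63 to -0.67), but of 0.052 where clusters took the place of marker classes. Nrg1, a ligand of the ERBB receptors, had 288 and 116 UMIs and a ratio of -0.88 (-1.21 to -0.57). The 16 measured macrophage state genes had a median of -0.0046, with Apoe at -0.22 and Spp1 at -0.06. Higher were Saa3 (ENSMUSG00000040026), an acute-phase protein, with 96 UMIs in 48 cells and 224 UMIs in 30 cells, a ratio of 1.65 (1.30 to 2.01), and Timd4, a receptor for dying cells on resident macrophages, with 12 and 47 UMIs, a ratio of 2.40 (1.46 to 3.45). The summed level of the 12 macrophage markers was 68227 and 59940 CPM, that of the 10 monocyte markers 1339 and 1478 CPM, and that of the 12 tumor cell markers 77.2 and 91.1 CPM.

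In monocytes, Ccl5 and interferon response genes were higher in the anti–PD-1 tumor. Of 3085 genes compared, 13 or 0.421% were past the fold higher and 11 or 0.357% lower, and the median over all genes was 0.00. Of all these genes, 1549 were above 0. Ccl5 had 37 UMIs in 8 of 122 vehicle cells and 220 UMIs in 21 of 144 anti–PD-1 cells, or 79.8 and 394 CPM, a log2 ratio of 2.30 (1.80 to 2.85), and 2.59 without the highest cells. Isg15 had 207 UMIs in 58 cells and 591 UMIs in 74 cells, a ratio of 1.25 (1.01 to 1.48). Rsad2 had 77 UMIs in 12 cells and 239 UMIs in 24 cells, a ratio of 1.37 (0.99 to 1.76). These were the 3 highest-ranked genes of the class, and none depended on 1 cell. After thinning to 2000 UMIs, monocytes with a Ccl5 UMI were 6 of 114 and 17 of 137, a log2 ratio of 1.24 (-0.17 to 2.87), so the interval of the share included 0.

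Ccl5 and Rsad2 were partly in the same monocytes. With anti–PD-1, 8 of the 21 monocytes with Ccl5 also had Rsad2, and with vehicle 1 of 8. Of 22 measured type I interferon genes, 17 were above 0, 2 past the fold higher and 0 lower, with a median of 0.38, and Irf7 had a ratio of 0.46 (0.21 to 0.70). Of 14 IFN-γ response genes 11 were above 0, with a median of 0.33, but Cxcl9, a further CXCR3 ligand, was past the fold lower, with 138 UMIs in 5 vehicle cells and 62 UMIs in 13 anti–PD-1 cells. Its log2 ratio was -1.42 (-1.88 to -0.98), or -0.74 without the highest cells, as 74 vehicle UMIs lay in 1 cell. Cxcl10 did not differ in this class, with 347 and 335 CPM and a ratio of -0.05 (-0.36 to 0.26).

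The macrophage-associated genes Spp1 and Mrc1 were lower in anti–PD-1 monocytes. Spp1 (ENSMUSG00000029304), the secreted osteopontin, had 1226 and 839 UMIs, or 2645 and 1503 CPM, a ratio of -0.82 (-0.94 to -0.69), and Mrc1, the mannose receptor and a marker of macrophages, 70 and 38 UMIs and -1.15 (-1.76 to -0.56). Mrc1 is also among the markers counted to place a cell in this class, so its difference is not a separate finding. Saa3, which was higher in macrophages, had 96 and 58 UMIs here and a ratio of -0.995 (-1.49 to -0.51), with 48 vehicle UMIs in 1 cell and a ratio of -0.53 without the highest cells. Hypoxia genes had 11 measured members, 9 above 0 and 0 past the fold, and a median of 0.39. G2/M genes under the minimum of UMIs were lower in sum in this class. Of 52 members 5 were measured, with a median of -0.05, and the other 47 had 257 and 139 UMIs, a log2 ratio of -1.15 (-1.46 to -0.85), with 2 higher and 39 lower. Cycling monocytes numbered 1 of 122 and 0 of 144. Outside the hypoxia list, Ero1l, an oxidase of protein folding that low oxygen induces, was past the fold with 39 and 103 UMIs, a ratio of 1.13 (0.59 to 1.70). The summed macrophage markers of this class were 16025 and 14001 CPM.

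In TANs, the 2 genes with the largest ratios, Ngp and Camp, were granule genes whose UMIs lay mostly in 1 cell. Of 3671 genes compared, 33 or 0.899% were past the fold higher and 5 or 0.136% lower, with a median of 0.01 over all genes. Of all these genes, 1888 were above 0. Ngp (ENSMUSG00000032484) and Camp (ENSMUSG00000038357), proteins of the secondary granules that neutrophils make in the marrow, had 4 and 1 UMIs with vehicle and 479 and 227 UMIs with anti–PD-1, which gives log2 ratios of 6.47 (5.10 to 8.35) and 7.39 (4.90 to 12.70). A single anti–PD-1 neutrophil with 7953 UMIs, the most of its class, held 410 UMIs of Ngp, 188 of Camp, 131 of the lactoferrin gene Ltf and 1520 of S100a9. Without the highest cells, Ltf had a log2 ratio of -0.10 instead of 1.47. Ngp had 5.67 (3.15 to 10.996), but this step also leaves out 3 of its 4 vehicle UMIs. A further anti–PD-1 cell held 49 UMIs of Ngp, with at most 6 in any of the others. Neutrophils with at least 2 of Ngp, Camp and Ltf were 0 of 425 and 2 of 522. Of 13 measured granule and maturation genes, 5 were past the fold higher and 12 above 0, with a median of 0.43, or 0.18 without the highest cells. Ngp and Camp reached the minimum of UMIs only through the anti–PD-1 library, so these counts describe the measured members alone. The 6 members under the minimum had 33 and 53 UMIs, a log2 ratio of 0.25 (-0.41 to 0.92), with 4 higher and 1 lower.

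Retnlg (ENSMUSG00000022651), a resistin-like gene of mature neutrophils and a class marker, had 269 UMIs in 35 cells and 884 UMIs in 42 cells, a ratio of 1.28 (1.08 to 1.48) with all cells and 1.28 without the highest. The UMIs lay in few cells, as 4 anti–PD-1 and 3 vehicle neutrophils held at least 50% of them. Ifitm6, an interferon-induced membrane protein, had 71 and 226 UMIs in 28 and 40 cells, a ratio of 1.23 (0.84 to 1.64), with 72 of the anti–PD-1 UMIs in the cell highest for Ngp and 22 vehicle UMIs in 1 cell, and a ratio of 1.22 without both. Hcar2, a receptor for niacin and ketone bodies, and Ero1l were lower, with ratios of -0.62 (-0.82 to -0.42) and -0.69 (-0.96 to -0.42). Of 13 hypoxia genes 5 were above 0, with a median of -0.10, against medians of 0.25 and 0.39 in macrophages and monocytes. The 14 measured genes of MDSC effectors, the functions by which neutrophils restrain T cells, had none past the fold and a median of -0.02. Il1b, their most abundant cytokine, had 23955 and 25582 CPM, a ratio of 0.09 (0.06 to 0.13).

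Of 23 measured type I genes 17 were above 0 and none past the fold in TANs, with a median of 0.12, and of 14 IFN-γ response genes 12 were above 0 and none past the fold, with a median of 0.20. Rsad2 had 299 UMIs in 70 of 425 cells and 659 UMIs in 80 of 522 cells, a ratio of 0.70 (0.50 to 0.91), while Isg15, counted in 272 and 319 cells, had -0.11 (-0.21 to -0.02). The share of neutrophils with Rsad2 was 14.5% and 14.2% after thinning to 1000 UMIs, a log2 ratio of -0.02 (-0.59 to 0.55), so the share did not follow the sum. Cxcl10 had 191 and 360 UMIs, a ratio of 0.48 (0.22 to 0.74), and 154 of 191 and 343 of 360 of these were in cells that also had Rsad2.

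Across classes, the summed level of Rsad2 was higher in macrophages, monocytes and neutrophils of the anti–PD-1 tumor and lower in tumor cells, and that of Ccl5 was higher in monocytes and T or NK cells and lower in tumor cells. In macrophages Ccl5 had 741 and 551 UMIs, or 163 and 163 CPM, but 180 of the latter UMIs were in the single macrophage named above, and without the highest cells the log2 ratio was -0.31 (-0.50 to -0.13). Macrophages with a Ccl5 UMI were 117 of 647 and 65 of 516, or 18.1% and 12.6%, and 9.54% and 8.47% after thinning. Cells with UMIs of at least 3 of Ifit2, Ifit3, Isg15 and Rsad2, after thinning, were 3.50% and 5.85% of macrophages, 5.26% and 8.76% of monocytes and 5.12% and 7.45% of neutrophils, with log2 ratios of 0.74 (-0.11 to 1.61), 0.73 (-0.79 to 2.43) and 0.54 (-0.34 to 1.48). In tumor cells they were 3 of 315 and 2 of 421. The direction was shared by the 3 myeloid classes, and no single interval excluded 0.

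**Figure D3:**
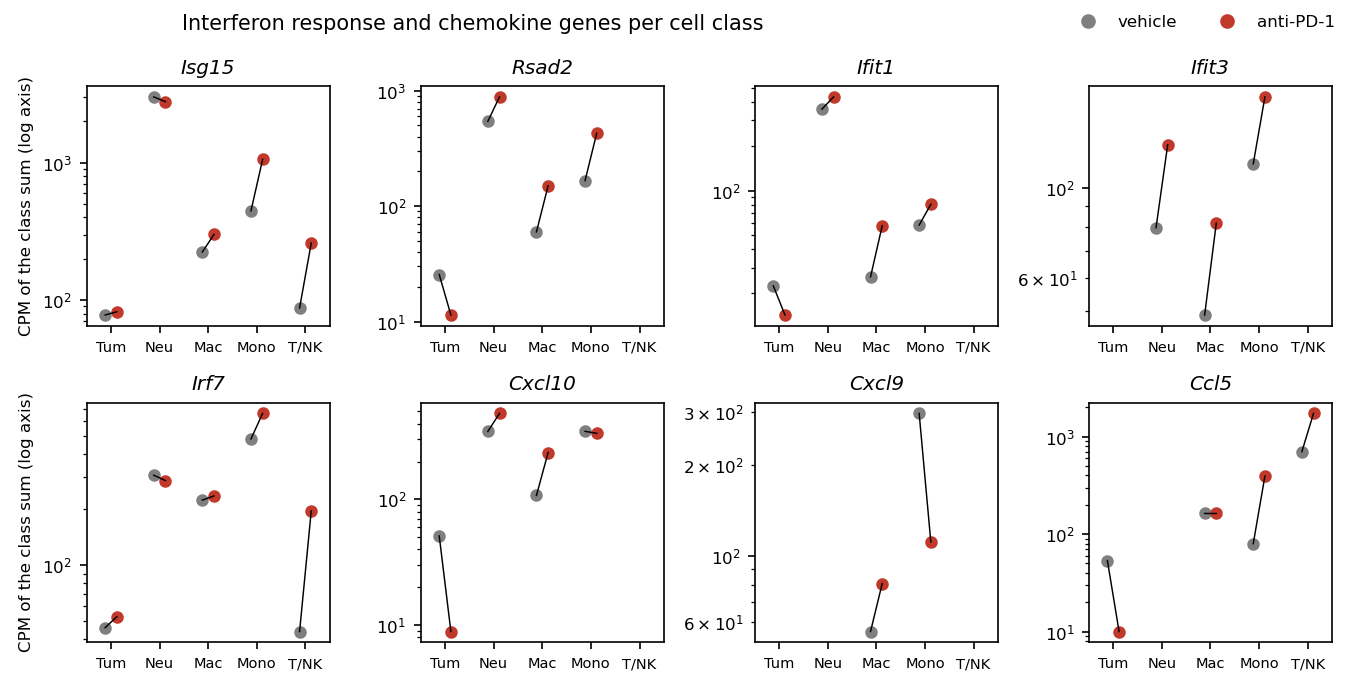
CPM of 8 interferon response and chemokine genes in the summed UMIs of tumor cells (Tum), neutrophils (Neu), macrophages (Mac), monocytes (Mono) and T or NK cells (T/NK) on a log axis, with vehicle in grey and anti–PD-1 in red; a class is left out where the gene had under 50 UMIs over both libraries. Ccl5 was at 79.8 and 394 CPM in monocytes and at 53.4 and 10.0 CPM in tumor cells.

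**Figure D4:**
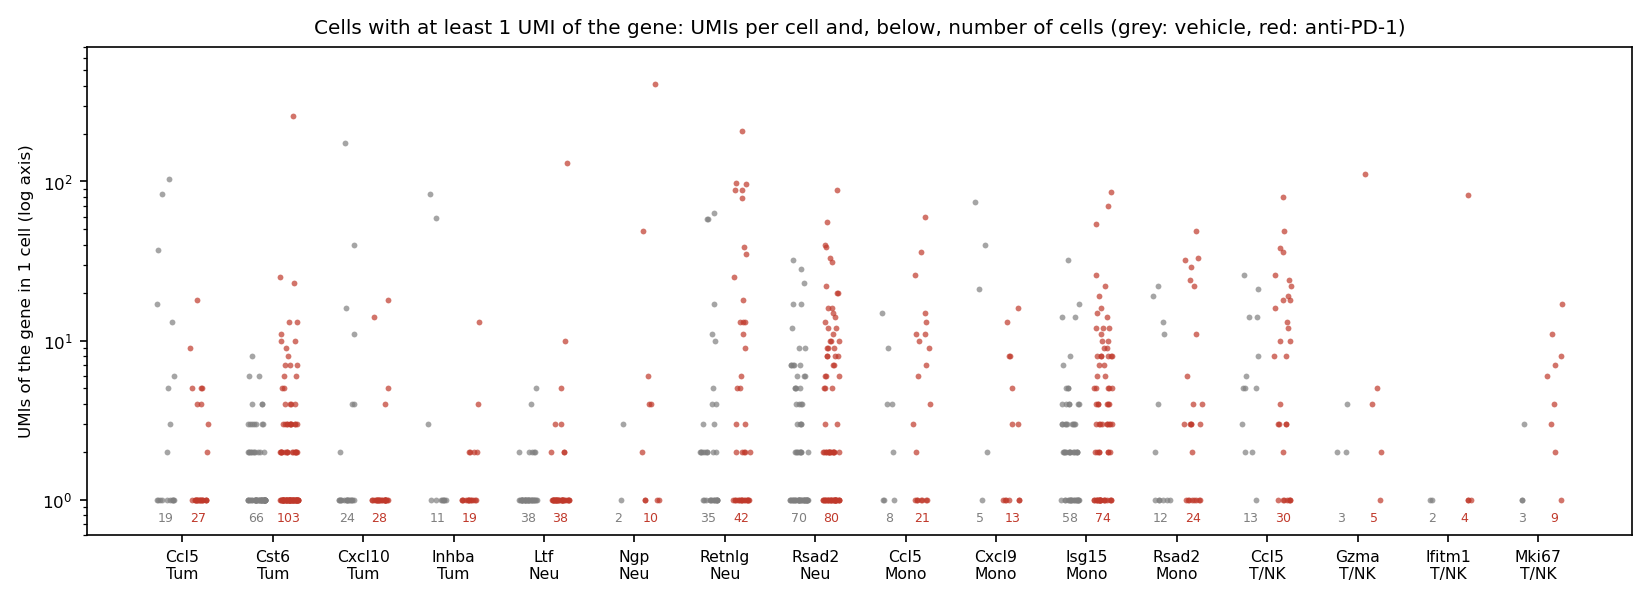
UMIs of a gene in each cell that had at least 1, on a log axis, for 16 pairs of gene and class, with vehicle cells in grey, anti–PD-1 cells in red and the number of such cells below. Single cells stand far above the rest for Ngp (410 UMIs) and Gzma (112 UMIs) with anti–PD-1 and for Cxcl10 in tumor cells (175 UMIs) with vehicle, whereas Isg15 and Ccl5 in monocytes are spread over 74 and 21 anti–PD-1 cells.

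**Figure D5:**
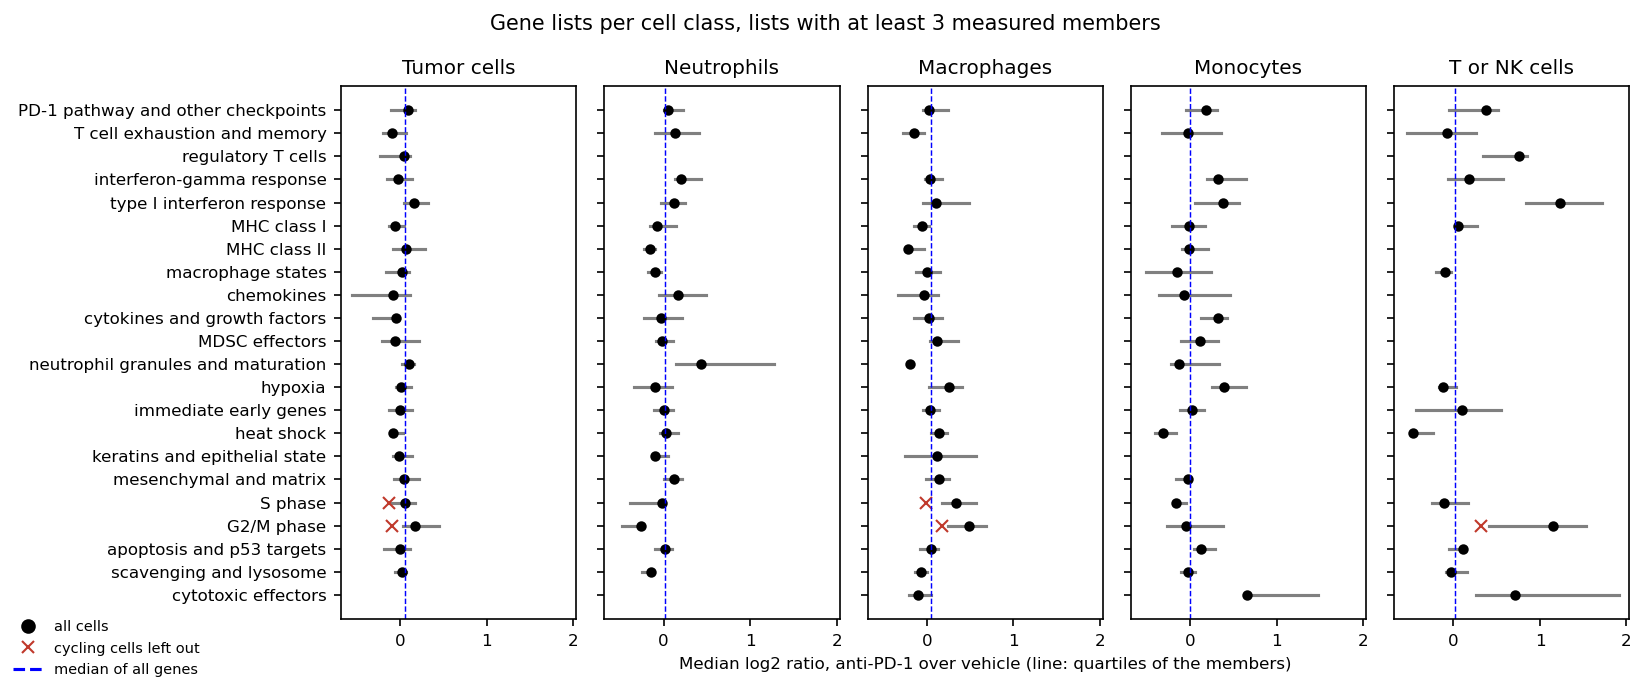
Median log2 ratio of the members of each gene list with at least 3 measured genes (points), with the quartiles of its members (grey lines), per class; the dashed line is the median of all genes compared and crosses give the S phase and G2/M lists without cycling cells. In T or NK cells the medians of type I interferon (1.23) and G2/M genes (1.15) lie highest, but they rest on 4 of 28 and 12 of 52 members. Some of these reached the minimum of UMIs only through anti–PD-1, and the summed members under it had log2 ratios of 0.57 and 1.48. The medians of most lists in tumor cells and macrophages lie near that of all genes.

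Anti–PD-1 was also given on top of IACS-70654, which gives a second ratio, combination over IACS-70654 alone, that shares no sample with the first. Since samples were split by tag, the 2 ratios may still share a preparation. Tumor cells, macrophages and T or NK cells had a second ratio on the same side of 0 as the first, with an interval without 0. Tumor cells were 14.1% with IACS-70654 and 20.2% with the combination, a log2 ratio of 0.52 (0.38 to 0.67) beside 0.36, macrophages 60.7% and 53.4%, or -0.19 (-0.26 to -0.11) beside -0.38, and T or NK cells 1.37% and 2.01%, or 0.55 (0.09 to 1.03) beside 0.40. Neutrophils were 4.64% and 5.29%, a ratio of 0.19 (-0.07 to 0.45) beside 0.24.

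Across genes within a class, which are not independent replicates, Pearson's r between the 2 sets of log2 ratios was -0.015 over 9950 genes in tumor cells, -0.039 over 2350 in neutrophils, 0.047 over 8680 in macrophages, 0.047 over 3075 in monocytes and 0.093 over 1180 in T or NK cells. Of the 50 genes that ranked highest or lowest in the 5 classes, 9 had a second ratio on the same side of 0 with an interval without 0, and 9 on the other side. Ccl5 was on the same side in monocytes, at 0.79 (0.49 to 1.10), and in T or NK cells, at 0.41 (0.09 to 0.74), as was Isg15 in monocytes, at 0.58 (0.41 to 0.76). The G2/M medians were 0.28 in tumor cells, 0.07 in macrophages and -0.20 in T or NK cells beside 0.16, 0.49 and 1.15, and the macrophage hypoxia median was -0.01 beside 0.25. The type I interferon medians were 0.20 in tumor cells, -0.21 in neutrophils, 0.05 in macrophages, 0.23 in monocytes and 0.22 in T or NK cells beside 0.16, 0.12, 0.10, 0.38 and 1.23. Those of IFN-γ response were 0.26, 0.26, 0.22, 0.33 and 0.02 beside -0.02, 0.20, 0.04, 0.33 and 0.18 in the same order, and the cytotoxic median of T or NK cells was 0.35 beside 0.71.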

How the data were processed

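Live cells of the 2208L tumors were tagged, pooled and sequenced by scRNA-seq, and the authors made the raw UMI count of each gene and cell with Cell Ranger, whose file header gives version 7.1.0, and deposited the count matrices without normalization. The submitters' processing notes name the build mm10 and the tools Cell Ranger and Seurat. Groups came from the sample labels, with 1 library each. A cell was kept if over 200 but under 6000 genes were detected and no more than 10% of its UMIs were mitochondrial. Classes were set by counts of fixed markers: at least 4 of 12 for tumor cells and for neutrophils, at least 3 for T or NK and B cells, at least 4 for fibroblasts, endothelial and plasmacytoid dendritic cells, then at least 10 C1q UMIs for macrophages, at least 5 monocyte or macrophage markers for monocytes, and at least 50 MHC class II UMIs with 1 dendritic cell marker for dendritic cells. Cells that met more than 1 rule were left out of the classes. How many markers each class needed was set after the data were seen, and the classes, members and gene lists were chosen with earlier results of these data known. Scrublet marked 13 and 7 cells as doublets, too few to rely on, so none were removed.

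UMIs were summed per class, scaled to CPM, and compared for genes with at least 50 UMIs over both libraries. Ratios carry exact conditional Poisson 95% intervals and shares exact Clopper-Pearson intervals, both for counting error only, and the floor of a count of 0 is 3 counts. No pseudocount was used, no test was run between conditions, and PCR copies were collapsed by UMI. Genes named in the text are a choice from a set fixed by rule, and not all of that set is named. Per class, it held the 5 genes with the highest and the 5 with the lowest bound nearest 0. It also held the 3 members of each described list with the most UMIs, any member past the fold, and the genes of PD-1 and PD-L1. Exceptions named for their link to these were chosen after their values were seen: Pdcd1lg2, Ifng, Trp53, the genes of single highest cells, and genes given again in a further class. Sums over list members under the UMI minimum were added after seeing the data. Alternatives were other UMI minimums, a fold of 0.5 on the log2 scale, TMM scaling, means over cells, clusters in place of marker classes, thinned cells, and the highest or the cycling cells left out. Python 3.11.15 with numpy 2.4.6, scipy 1.17.1, pandas 2.3.3 and scanpy 1.11.5 was used, with edgeR 4.0.16 for TMM factors only. The ratio and interval code was tested on simulated data.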

Additional observations from a re-analysis of the deposited data

Results flagged for a closer look

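For 9 of the 50 highest- or lowest-ranked genes, the ratio of the combination over IACS-70654 alone lay on the other side of 0 from that of anti–PD-1 over vehicle, with both intervals without 0. In tumor cells, the log2 ratio of Cxcl10 was 0.24 against -2.52, that of Ccl5 was 0.32 against -2.41 and that of Mgp was 1.21 against -1.71. In neutrophils, Retnlg had -3.05 against 1.28. In macrophages, Saa3 had -0.34 against 1.65, Rsad2 had -0.36 against 1.33 and Ccl7 had 0.42 against -0.66. In monocytes, Cxcl9 had 0.74 against -1.42, and in T or NK cells Bach2 had 0.7 against -1.09. With 1 library per condition these differences were not tested, and the response to the antibody, the length of treatment, the pool of mice and the library cannot be told apart.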

How the results depend on the processing

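No paired analysis was possible because each condition has 1 library, and for the same reason no replicate could be left out and no count test was run. Of the shares of classes, 79 values changed by less than their interval, and 2 changed more, both with cells thinned to 1000 UMIs, where macrophages had a log2 ratio of -0.56 and dendritic cells 0.73. The 16 values of subset shares that were checked changed by less than their interval. Macrophages with a Rsad2 UMI were not among these. They were 4.13% and 9.07% after thinning, a log2 ratio of 1.13 (0.41 to 1.89), and lay closer together at their own depth, at 11.6% and 14.9%. Counts of genes past the fold depended on the minimum of UMIs. For tumor cells, neutrophils, macrophages, monocytes and T or NK cells they were 8, 7, 6, 4 and 4 with at least 200 UMIs, 4301, 5097, 4260, 4140 and 4985 with at least 1 UMI, and 646, 475, 646, 427 and 301 with a log2 ratio of 0.5 as the fold. With means over cells 88 genes of tumor cells were past the fold, and with clusters 163 of tumor cells and 144 of T or NK cells. The clusters merged macrophages, monocytes and dendritic cells, which gave these classes no share of their own. Without cycling cells, the medians of the G2/M list were -0.10 in tumor cells, 0.17 in macrophages and 0.32 in T or NK cells, those of S phase -0.13 in tumor cells and -0.0057 in macrophages, and that of checkpoints in T or NK cells 0.60. The regulatory T cell median was 0.26 with means over cells and 0.86 without the highest cells, that of MHC class II in macrophages -0.27 with TMM scaling, and that of IFN-γ response in monocytes 0.19 with at least 200 UMIs. The other 130 list values changed less. Of single genes, 354 values changed less, 54 more, and 4 changed sign: Ltf in neutrophils (-0.096), Hspb1 in macrophages (-0.075) and Kcnq5 in T or NK cells (0.020) without the highest cells, and Mgl2 in macrophages (0.052) with clusters. The causes were not tested beyond the cells or genes each alternative leaves out. Leaving out the highest or the cycling cells, counting cells of mixed markers, and taking cells outside the tumor class as the whole were chosen after seeing the data.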

Other observations

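Among B cells, those with UMIs of at least 2 of Jchain, Mzb1 and Derl3, genes of antibody-secreting cells, were 6 of 29 with vehicle and 1 of 44 with anti–PD-1 after thinning to 1000 UMIs, or 20.7% (7.99% to 39.7%) and 2.27% (0.058% to 12.02%), a log2 ratio of -3.19 (-8.71 to -0.14). At their own depth they were 11 of 31 and 8 of 47.

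Among dendritic cells thinned to 2000 UMIs, those with the cDC1 genes Xcr1 or Clec9a were 2 of 30 and 3 of 31, those with the cDC2 genes Cd209a or Mgl2 were 11 of 30 and 9 of 31, and those with the maturation genes Ccr7 or Fscn1 were 4 of 30 and 1 of 31. All 3 intervals of the ratios included 0.

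Neutrophils with a UMI of Siglecf, a lectin receptor known from eosinophils and from some tumor neutrophils, were 25 of 332 and 47 of 443 after thinning to 1000 UMIs, or 7.53% and 10.6%, a log2 ratio of 0.49 (-0.23 to 1.26), and 35 of 425 and 76 of 522 at their own depth.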
